A study of Homo sapiens with 2 samples.

Results

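The cytosolic ribosomal protein genes code for the proteins of the ribosome that translates nuclear messages, and their levels were compared between ZNF263 knockout (KO) and wild-type (WT) human embryonic stem cells. Members were chosen by symbol alone: RPL or RPS with digits and an optional A or X, together with RPLP0, RPLP1, RPLP2 and RPSA. Kinase genes, pseudogenes, L paralogs and Y-linked copies were left out. The rule found 77 genes among the 33592 symbols listed in either library, 46 of the large subunit and 31 of the small subunit, and all 77 were listed in both libraries. FAU, which codes for a ribosomal protein fused to a ubiquitin-like protein, carries another symbol and lay outside the rule.

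All cells were of H1 (WA01), a widely used line derived from a human embryo. The KO library was of cells in which Cas9 had deleted ZNF263 on both alleles; the gene codes for a zinc finger transcription factor. The WT library was of unedited H1 cells. After a viability stain, single cells were paired with barcoded beads in microwells, and their polyadenylated RNA was copied on the beads. Each genotype was 1 library, and the labels give no passage or second culture; the KO title carries a number pair that they do not explain, which may name a clone. No test between the genotypes was therefore possible, all intervals are 95% intervals that cover counting error only, and clone, culture and library cannot be told apart from genotype.

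Ribosomal proteins are made in the cytoplasm, imported into the nucleolus and built stepwise onto ribosomal RNA, after which the subunits are exported and join on a message. Because the finished particle holds nearly all of them in equal number, cells keep their supply matched, and unassembled copies are degraded. Their messages are short and abundant and typically begin with a cytosine followed by a run of pyrimidines, the 5′ terminal oligopyrimidine (TOP) motif, through which the kinase mTOR controls their translation. These messages are abundant in pluripotent stem cells, and in mouse embryonic stem cells protein synthesis is known to be low and to increase on differentiation.

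A unique molecular identifier (UMI) marks 1 captured message. The KO library held 54559376 UMIs over 841049 barcodes and the WT library 60578040 over 842407, most of them with few UMIs. A total of 834126 barcode sequences occurred in both libraries. Kept barcodes are those that reached 1000 UMIs and 500 genes with no more than 20% mitochondrially encoded UMIs; KO had 2286 of them and WT 2935, with a median of 1289.5 UMIs in KO and 1328 UMIs in WT. Shallow barcodes, with 250 to under 1000 UMIs, numbered 50551 in KO and 56837 in WT. Of the kept barcodes 20 sequences occurred in both libraries, or 0.875% of those in KO and 0.681% of those in WT. Of the shallow barcodes 4665 did, or 9.23% of those in KO and 8.21% of those in WT. Results without shared barcodes are given with the counts they touch. Levels are given as CPM, the UMIs of a gene scaled to a common library total and not to its length. ZNF263 itself was at 7.57 CPM in KO and at 17.8 CPM in WT, a log2 ratio of -1.24 (interval -1.92 to -0.60). Its tags may lie outside the deleted stretch, which is not stated, so this is no check of the genotype. All 10 pluripotent stem cell markers were detected in both libraries. Their sum stood at 4545 CPM in KO and 4084 CPM in WT (0.15, interval 0.12 to 0.18; 0.23 in shallow barcodes). Of the 9 that averaged 20 CPM or more, 5 were higher in KO and 4 lower, from -0.55 for ESRG to 0.81 for TDGF1, with POU5F1 at 0.62 and SOX2 at -0.14. Among all 5710 genes at that level, 34.3% were higher in KO, which is the background for these marker counts. Of 10 neuroectoderm markers the 4 with a mean of at least 20 CPM were all lower in KO, and the summed list stood at 206 CPM in KO and 384 CPM in WT, with NEUROG2 at 0 in kept barcodes of both. The 8 mesendoderm markers summed to 14.6 CPM in KO and 38.7 CPM in WT (-1.41, interval -1.88 to -0.96; -1.73 in shallow barcodes). No mesendoderm, trophoblast or blood marker averaged 20 CPM, and CGA, HBB and PTPRC had no UMI in kept barcodes. The part of these marker differences in the ribosomal protein levels was not tested.

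The start of a ribosomal protein message carries its TOP motif, so start sequences are shown first for members at both ends of the range described further on. RefSeq start windows (GRCh38.p14) were found for 62 of the 77 members. A C followed by at least 4 bases that are each C or T, read on the transcript's own strand, lay within 10 bases of an annotated start in 57 of them, or 91.9%. The share was 38.4% among all 27305 symbols with a window and 41.3% among 4498 other genes that averaged 20 CPM or more. The run began exactly at an annotated start in 46 members, or 74.2%, against 5.14% of all symbols. A symbol counts here if any of its annotated starts does. Over single starts the share was 59.7% of 77 for members and 4.07% of 35116 for all symbols. Each line gives 30 bases from 5′ to 3′, 15 before an annotated start and 15 from it, with the run in capitals. For a symbol with several annotated starts, the start with the nearest run is shown. RPL10 and RPS27A had 3 starts and RPS19 had 2.
RPS25 (chr11:119018329-119018358, minus strand): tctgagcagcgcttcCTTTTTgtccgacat
RPS27A (chr2:55232673-55232702, plus strand): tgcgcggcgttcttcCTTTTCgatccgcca
RPS27 (chr1:153990747-153990776, plus strand): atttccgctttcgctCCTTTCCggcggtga
RPL28 (chr19:55385917-55385946, plus strand): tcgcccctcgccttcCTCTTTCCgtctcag
RPL35A (chr3:197950175-197950204, plus strand): cggcggggcctcgtcCTTCTCTTaccgcca
RPL10 (chrX:154398362-154398391, plus strand): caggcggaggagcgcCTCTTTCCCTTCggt
RPS19 (chr19:41860240-41860269, plus strand): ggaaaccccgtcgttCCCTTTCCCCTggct
RPL4 (chr15:66504841-66504870, minus strand): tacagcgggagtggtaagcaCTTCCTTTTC
RPS29 (chr14:49598696-49598725, minus strand): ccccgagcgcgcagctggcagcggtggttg
In RPL4 the run lies inside the annotated start, and in RPS29 these letters hold no run. Members with a run exactly at a start had a median log2 ratio of KO over WT of 0.12 (n = 42), against 0.05 for those without (n = 15). RPL10 and RPS19, with long runs, were among the lowest of their subunits, and RPS29, with none near its annotated start, among the highest. Going the other way, RPL6 and RPS4X, not shown, also had no run near an annotated start and were among the lowest of their subunits. An annotated start need not be the one used in these cells, so a missing run here does not show that the message lacks one. A link between the run and the ratio was not tested.

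Together the members were more abundant in the KO library, and the small subunit genes more so than the large subunit genes. In kept barcodes the 31 small subunit genes held 107731 CPM in KO and 93907 CPM in WT, a log2 ratio of 0.20 (interval 0.19 to 0.20). The 46 large subunit genes held 134177 CPM in KO and 124138 CPM in WT, a log2 ratio of 0.11 (interval 0.11 to 0.12). All members came to 24.2% of UMIs in KO and 21.8% in WT. The shallow barcodes, other barcodes of the same 2 libraries that may hold cells, fragments or free RNA, gave 0.20 for the small and 0.12 for the large subunit, with 24.6% of UMIs in KO and 22.1% in WT. For each large subunit UMI there were 0.803 small subunit UMIs in KO and 0.756 in WT, a log2 ratio of 0.09 (interval 0.08 to 0.09) that does not depend on scaling to the library total. The shallow barcodes gave 0.805 in KO and 0.756 in WT. With fewer messages per cell from other genes, the same share would be higher without any more of these messages, and the 2 cannot be told apart here.

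**Figure D1:**
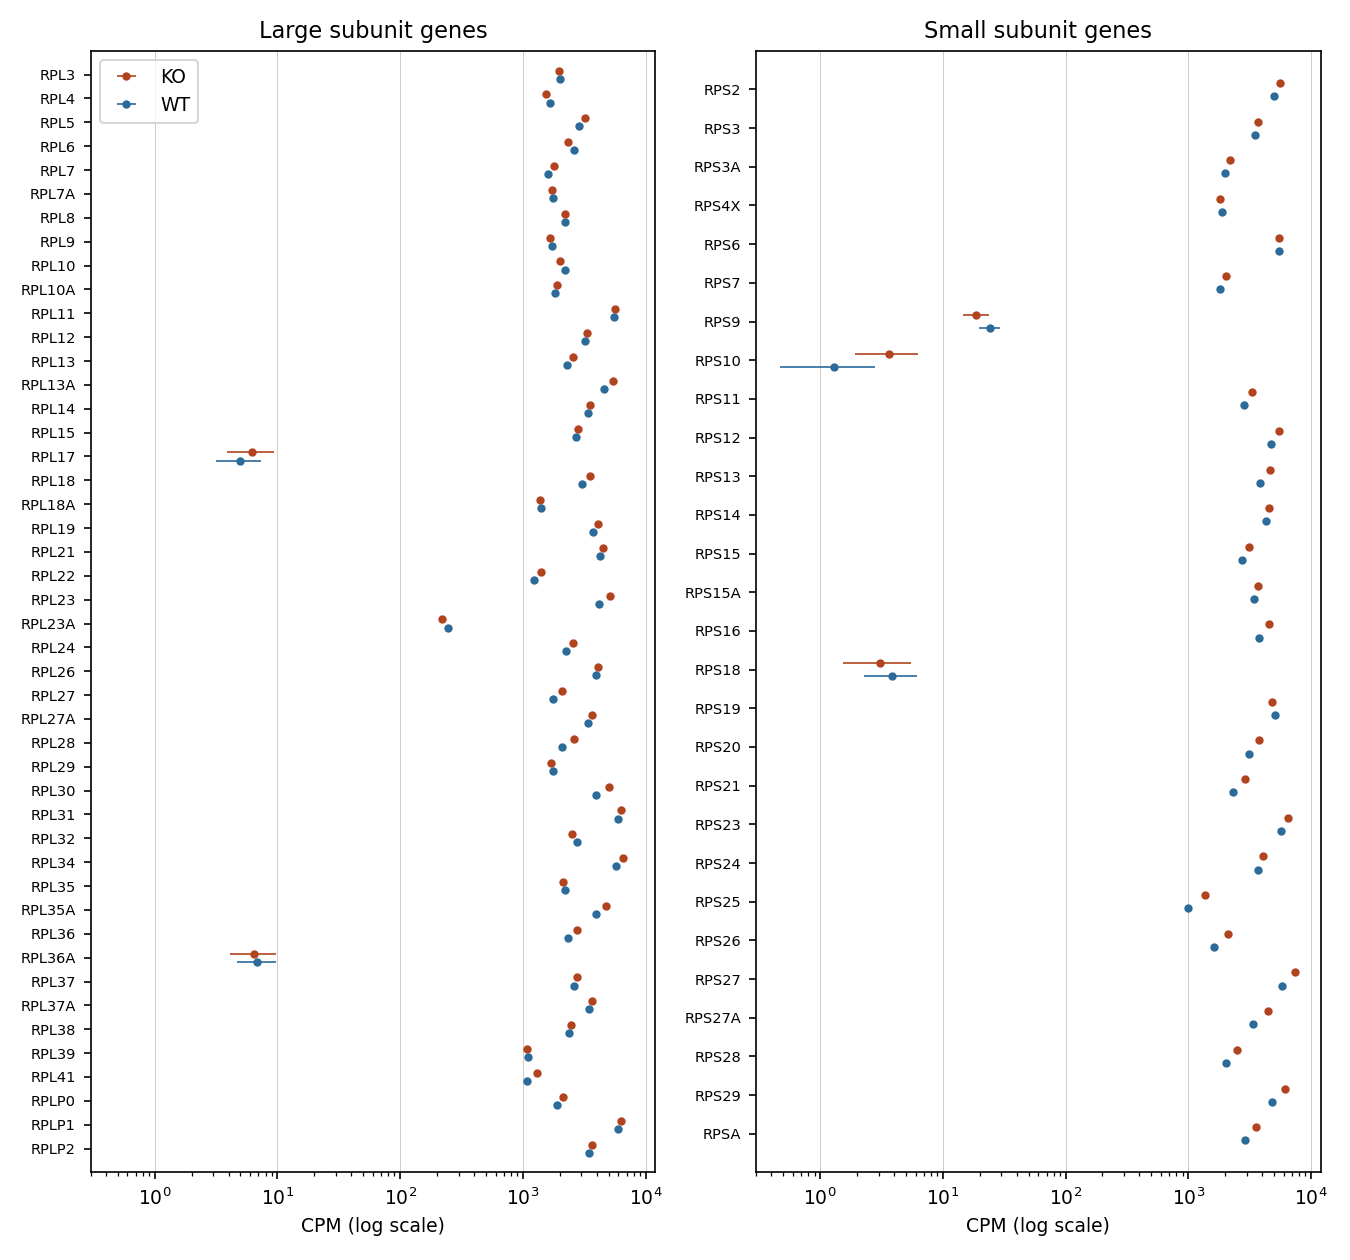
CPM on a log scale of 74 members in kept barcodes of the KO (red) and WT (blue) library, large subunit left and small subunit right, with 95% Poisson intervals. Most members lie above 1000 CPM in both libraries, and RPL17, RPL36A, RPS9, RPS10 and RPS18 lie far below the others.

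Member by member, 72 genes averaged 20 CPM or more over the libraries in kept barcodes, 44 of the large and 28 of the small subunit. Of these, 55 were higher in KO, which is 31 of the large and 24 of the small subunit, whereas 34.3% of all 5710 genes at that level were higher in KO. Their median log2 ratio was 0.12 (quartiles 0.03 and 0.24), against -0.12 for all genes (quartiles -0.31 and 0.07). The median was 0.21 in the small subunit and 0.08 in the large subunit. Scaling by trimmed mean of M values (TMM), which centres most genes near 0, moved every log2 ratio by 0.109 upward; 66 members were then higher in KO against 49.5% of all genes, and the medians became 0.32 and 0.19. In shallow barcodes TMM also gave 66, against 48.9%. The differences were small in size. A log2 ratio of at least 0.32, the fold threshold set for a call, was reached by 7 members, among them RPS25, RPS27A, RPS26, RPL30, RPS27 and RPS29. RPS21, RPL28 and RPS28, which round to 0.32, lay just below the unrounded threshold. That compares with 7.04% of all genes, so the count is near the background. A log2 ratio of -0.32 or below was reached by RPS9 alone, against 23.7% of all genes, and without barcode sequences shared by both libraries by 0 members. Under TMM the counts were 23 higher and 0 lower, against 12.9% and 14.3% of all genes. At 1.1-fold 35 members were higher and 3 lower, against 18.7% and 47.1%. No member reached 1.5-fold in either direction, against 1.98% of genes higher and 6.51% lower. Most members are far more abundant than 20 CPM, and 71 of the 72 averaged at least 100 CPM. Among all 1595 genes at 100 CPM or more, 41.7% were higher in KO, against 55 of these 71 members. A log2 ratio of -0.32 or below was reached by 11.1% of those genes and by 0 of the 71. Only 1.94% of those genes were 1.5-fold lower. The 34.3% set beside groups of members further on is the share at 20 CPM.

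The shallow barcodes gave 58 members higher in KO against 33.1% of all genes. Past the same threshold 8 members were higher against 6.11% and 1 was lower against 21.8%; under TMM 24 were higher against 11.1% and 0 lower against 12.1%. At 1.1-fold 33 were higher and 3 lower, against 16.6% and 47.2%. At 1.5-fold there were 0 of either, against 1.78% and 5.57% of all genes.

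**Figure D2:**
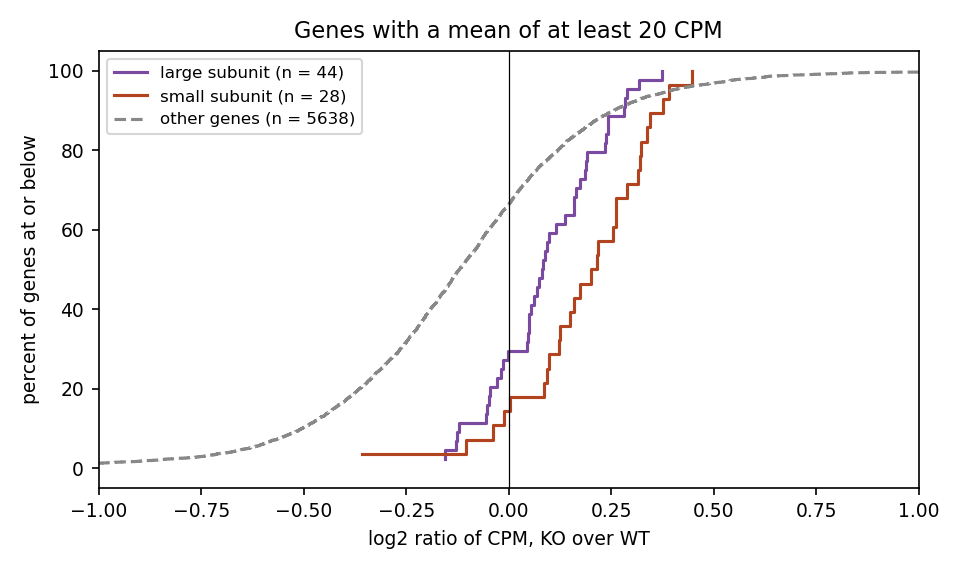
Percent of genes at or below each log2 ratio of KO over WT in kept barcodes, for large subunit genes (purple, n = 44), small subunit genes (red, n = 28) and all other genes averaging 20 CPM or more (grey dashed, drawn between -1 and 1). Both subunit curves lie to the right of the other genes through most of the range, and the small subunit curve reaches its midpoint at 0.21 against 0.08 for the large subunit.

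Among the large subunit genes, the P stalk proteins, which recruit translation factors to the ribosome, were slightly higher in KO. RPLP0, the stalk base, was at 2144 CPM in KO and 1902 CPM in WT, a log2 ratio of 0.17 (interval 0.13 to 0.22). Its partners were closer to level. RPLP1 was at 6316 CPM in KO and 6003 CPM in WT (0.07, interval 0.05 to 0.10), and RPLP2 at 3679 CPM in KO and 3447 CPM in WT (0.09, interval 0.06 to 0.13). RPL5 and RPL11 form a particle with a small ribosomal RNA and also bind the p53 regulator MDM2. RPL5 was at 3186 CPM in KO and 2853 CPM in WT (0.16, interval 0.12 to 0.20), and RPL11 at 5678 CPM in KO and 5490 CPM in WT (0.05, interval 0.02 to 0.08).

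The proteins around the exit of the tunnel, through which the new chain leaves the ribosome, went both ways. Of the 8 listed, 7 averaged at least 20 CPM; 4 of these were higher in KO and 3 lower, with a median log2 ratio of 0.04, where 31 of the 44 large subunit genes and 34.3% of all genes were higher. RPL19 had the highest value, at 4085 CPM in KO and 3712 CPM in WT (0.14, interval 0.11 to 0.17). RPL31 was at 6309 CPM in KO and 5929 CPM in WT (0.09, interval 0.06 to 0.12), RPL37 had a log2 ratio of 0.08 and RPL26 of 0.04. RPL39 and RPL35 lay just under 0, at -0.03 (interval -0.09 to 0.03) and -0.05 (interval -0.09 to -0.01). RPL23A, a docking site for factors that meet the new chain, was the lowest large subunit gene, at 221 CPM in KO and 247 CPM in WT (-0.16, interval -0.29 to -0.02). It was also the least abundant large subunit gene above 100 CPM, and the shallow barcodes gave -0.11.

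RPL30 led the large subunit, at 5070 CPM in KO and 3915 CPM in WT, a log2 ratio of 0.37 (interval 0.34 to 0.40) with 0.35 in shallow barcodes. RPL28, shown above with its pyrimidine run, was at 2619 CPM in KO and 2101 CPM in WT (0.32, interval 0.28 to 0.36). RPL23, which lies on the face turned to the small subunit, was at 5094 CPM in KO and 4171 CPM in WT (0.29, interval 0.26 to 0.32). RPL41, the smallest ribosomal protein, which bridges both subunits, was at 1316 CPM in KO and 1082 CPM in WT (0.28, interval 0.23 to 0.34). RPL35A was at 4772 CPM in KO and 3925 CPM in WT (0.28, interval 0.25 to 0.31), and RPL36 followed at 0.24 (interval 0.20 to 0.28). All 6 were also the same way in shallow barcodes, between 0.25 and 0.35.

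At the low end beside RPL23A stood RPL6, at 2339 CPM in KO and 2603 CPM in WT (-0.15, interval -0.20 to -0.11). RPL4, whose long loop lines the tunnel, was at 1536 CPM in KO and 1677 CPM in WT (-0.13, interval -0.18 to -0.08). RPL10, a late-joining protein near the peptidyl transferase centre, was at 2002 CPM in KO and 2190 CPM in WT (-0.13, interval -0.17 to -0.09). RPL32 was at 2518 CPM in KO and 2741 CPM in WT (-0.12, interval -0.16 to -0.08). RPL9 came next at -0.06 (interval -0.10 to -0.01), which is 0.05 under TMM. RPL23A, RPL6, RPL10, RPL4 and RPL32 had values below 0 under TMM, RPL10 at -0.02 and RPL6 at -0.05. Among these genes, only RPL6 then had its whole interval below 0.

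In the small subunit the 5 listed genes for proteins of the message exit and platform had log2 ratios above 0, with a median of 0.29. That is near the share of the whole subunit, 24 of 28, and compares with 34.3% of all genes. RPS26, which contacts the message upstream of the start codon, was at 2119 CPM in KO and 1633 CPM in WT (0.38, interval 0.33 to 0.42). RPS28 was at 2508 CPM in KO and 2014 CPM in WT (0.32, interval 0.27 to 0.36), and RPSA, also known as a laminin receptor, at 3551 CPM in KO and 2908 CPM in WT (0.29, interval 0.25 to 0.32). RPS3A had 0.12 (interval 0.08 to 0.17), and RPS14, whose loss is linked to a myelodysplastic syndrome, was at 4553 CPM in KO and 4289 CPM in WT (0.09, interval 0.06 to 0.12). The proteins of the message entry were also higher. RPS2 was at 5636 CPM in KO and 5045 CPM in WT (0.16, interval 0.13 to 0.19), and RPS3 at 3732 CPM in KO and 3486 CPM in WT (0.10, interval 0.07 to 0.13).

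The head of the small subunit held the highest and the lowest of the abundant small subunit genes. RPS25, used by viral internal ribosome entry sites, lies on chromosome 11 (119015717 to 119018343, GRCh38.p14). It was at 1364 CPM in KO (4868 UMIs) and 1001 CPM in WT (4653 UMIs), a log2 ratio of 0.45 (interval 0.39 to 0.51), the highest of all members with at least 100 CPM. The shallow barcodes gave 1380 CPM in KO and 1048 CPM in WT, or 0.40 (interval 0.37 to 0.42). RPS29, a zinc-binding protein, was at 6118 CPM in KO and 4840 CPM in WT (0.34, interval 0.31 to 0.37). RPS12, RPS15, RPS16 and RPS20 lay between 0.20 and 0.26.

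RPS19, also of the head and the gene most often mutated in Diamond-Blackfan anemia, an inherited failure of red cell production, lies on chromosome 19 (41860255 to 41872925). It was the lowest abundant small subunit gene, at 4781 CPM in KO (17057 UMIs) and 5139 CPM in WT (23899 UMIs), a log2 ratio of -0.10 (interval -0.13 to -0.08) that is 0.00 under TMM. The shallow barcodes gave -0.12 (interval -0.13 to -0.11). Of 11 genes listed for that disease, 9 averaged at least 20 CPM; 8 were higher in KO and RPS19 was lower, against 55 of 72 members and 34.3% of all genes higher.

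RPS27A, a ubiquitin fusion that yields both free ubiquitin and a small subunit protein, was at 4425 CPM in KO and 3377 CPM in WT, a log2 ratio of 0.39 (interval 0.36 to 0.42). RPS27, the small subunit gene with the most UMIs, was at 7355 CPM in KO and 5789 CPM in WT (0.35, interval 0.32 to 0.37). RPS21 was at 2883 CPM in KO and 2308 CPM in WT, a log2 ratio of 0.32. RPS6, the substrate of the S6 kinases, was at 5476 CPM in KO and 5462 CPM in WT (0.00, interval -0.02 to 0.03). RPS4X, one of the X-linked members, was at 1831 CPM in KO and 1880 CPM in WT (-0.04, interval -0.08 to 0.01). The X-linked members with at least 20 CPM were RPS4X, RPL10 and RPL39. All 3 had log2 ratios below 0 in kept barcodes, where only 34.3% of all genes were higher in KO. The intervals of RPS4X and RPL39 include 0. RPL39 was at 0.01 in shallow barcodes, and RPS4X and RPL39 were above 0 under TMM.

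**Figure D3:**
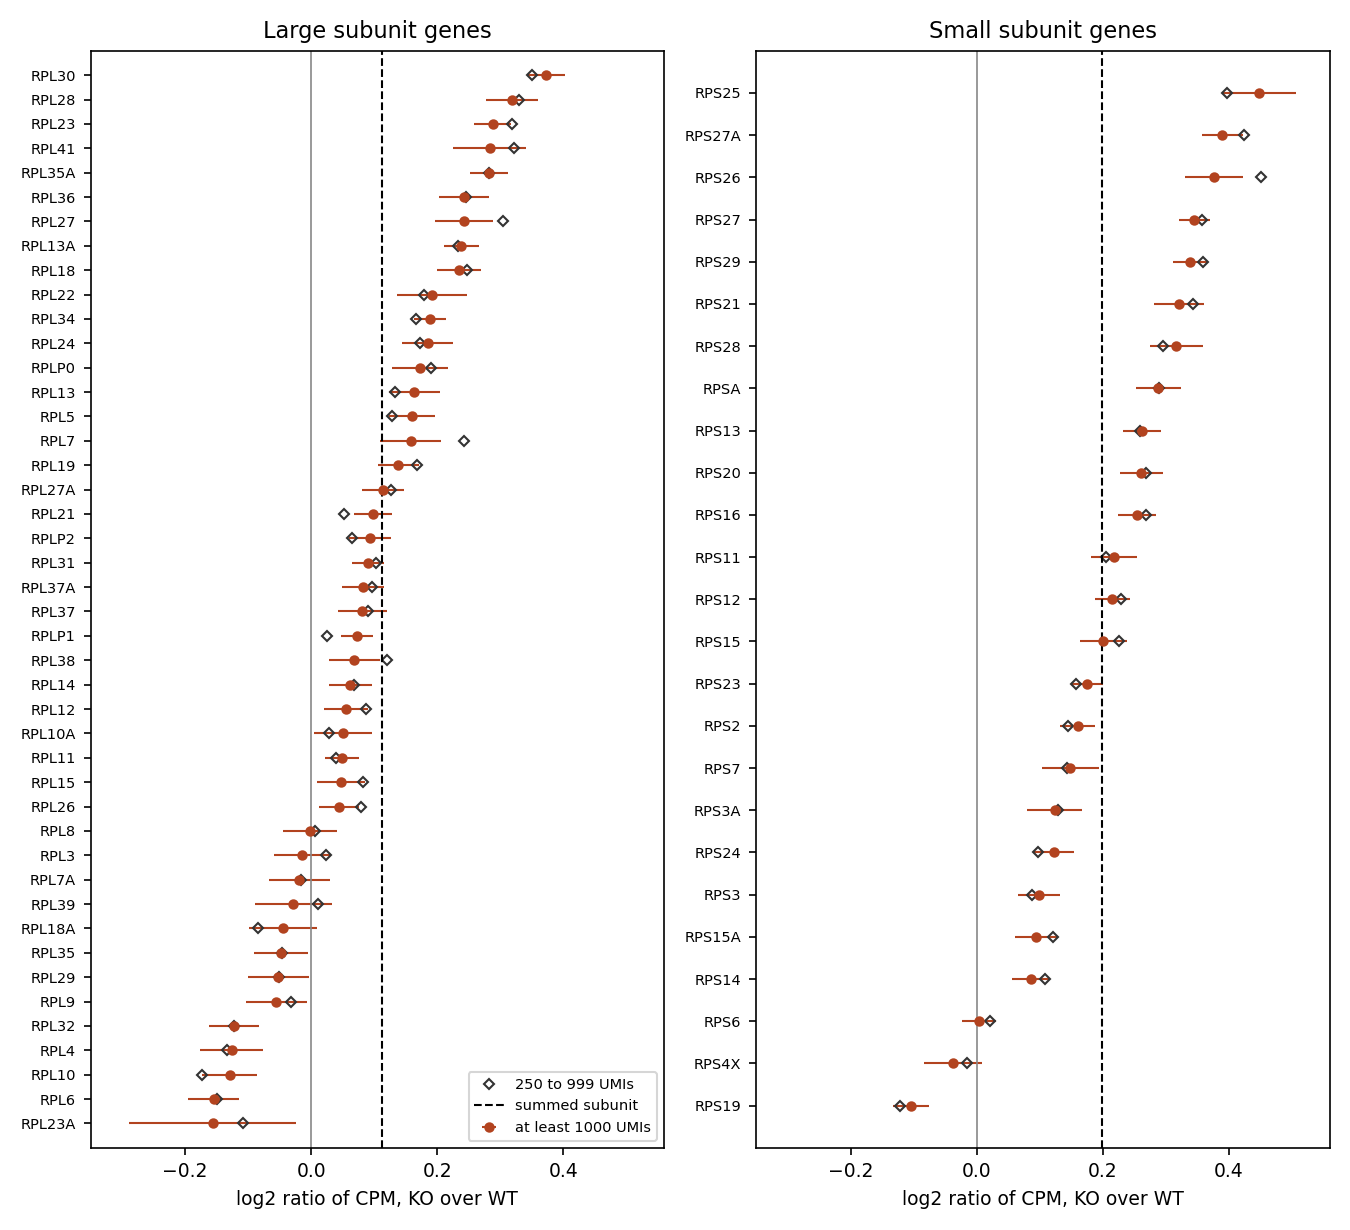
Log2 ratio of CPM, KO over WT, of 69 members averaging 100 CPM or more, with 95% counting intervals, in kept (filled) and shallow (open) barcodes; the dashed line is the summed subunit. Values run from -0.16 for RPL23A to 0.37 for RPL30 in the large subunit and from -0.10 for RPS19 to 0.45 for RPS25 in the small subunit, and the open symbols lie close to the filled ones.

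The spread among members was wider than counting error. The median half-width of an interval was 0.04 in kept and 0.02 in shallow barcodes. Of the 44 large subunit genes with at least 100 CPM, 31 had an interval above 0 and 8 one below; of the 27 small subunit genes, 23 had one above and 1, RPS19, one below. Set against its own subunit's sum, which removes the scaling to all UMIs, 15 large subunit genes had a larger share in KO and 21 a smaller one beyond counting error, and 12 and 11 small subunit genes did. RPS27 made up 6.83% of small subunit UMIs in KO and 6.16% in WT, whereas RPS19 made up 4.44% in KO and 5.47% in WT and RPS6 5.08% in KO and 5.82% in WT. RPL30 made up 3.78% of large subunit UMIs in KO and 3.15% in WT, and RPL6 1.74% in KO and 2.10% in WT. The log2 ratios in kept and shallow barcodes had a Spearman rho of 0.98 over the 71 members; 68 had the same sign and the largest difference was 0.08. Both layers come from the same 2 libraries, so this shows precision within them and nothing about other cultures.

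The 6 members below 100 CPM are short of UMIs of their own, and their values are uncertain. RPS9 held 67 UMIs in KO and 112 in WT, at 18.8 CPM in KO and 24.1 CPM in WT (-0.36, interval -0.82 to 0.09). RPL36A was at 6.45 CPM in KO and 6.88 CPM in WT, RPL17 at 6.17 CPM in KO and 4.95 CPM in WT, and RPS18 at 3.08 CPM in KO and 3.87 CPM in WT. RPS10 held 13 UMIs in KO and 6 in WT, a log2 ratio of 1.5 with an interval of 0.00 to 3.18. Rows named as pseudogenes of these 6 genes were picked by symbol alone, and such pseudogenes are typically copies of a message elsewhere in the genome. These rows held from 90.2% to 99.6% of the summed UMIs of gene and pseudogenes. RPS10 pseudogenes held 488 CPM in KO and 568 CPM in WT, and RPL36A pseudogenes 810 CPM in KO and 794 CPM in WT. RPS10, RPL17 and RPL36A also overlap a readthrough gene on the same strand in GENCODE 29. None of these readthrough genes was listed in either library, and RPS9 and RPS18 have no such overlap. No source used here says how the authors' counting shared out reads that match both a gene and a copy.

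Pseudogene rows mattered beyond these genes. A total of 1200 rows carried a member's symbol followed by P and digits, and in 44 members they held over 10% of the summed UMIs. Their UMIs may come from the member's own message. Summed over all members they were level between the libraries relative to all UMIs, at 43396 CPM in KO and 43452 CPM in WT (0.00, interval -0.01 to 0.01). The genes themselves were higher in KO, and the median over all genes averaging at least 20 CPM was -0.12. For 38 of the 44, those with a gene level of at least 100 CPM, the gene had a median log2 ratio of 0.14 and its pseudogenes -0.06. In 34 of the 38 the gene's ratio was above that of its pseudogenes, and in 25 their intervals did not overlap. RPS25 pseudogenes, with 53.0% of the summed UMIs, were at 1409 CPM in KO and 1229 CPM in WT (0.20, interval 0.14 to 0.25), and RPS25 with them added had 0.31. RPS27 pseudogenes were at 3654 CPM in KO and 3136 CPM in WT (0.22). RPL13A, with a log2 ratio of 0.24, had pseudogenes at 1062 CPM in KO and 1205 CPM in WT (-0.18), and RPS2, at 0.16, had pseudogenes at -0.20. RPL4 pseudogenes were at 493 CPM in KO and 670 CPM in WT (-0.44), lower than the gene itself. RPS26 and RPL41 and their pseudogenes had nearly the same ratios, 0.38 and 0.39, and 0.28 and 0.28. Adding pseudogenes to their genes gave summed log2 ratios of 0.18 for the small and 0.083 for the large subunit.

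**Figure D4:**
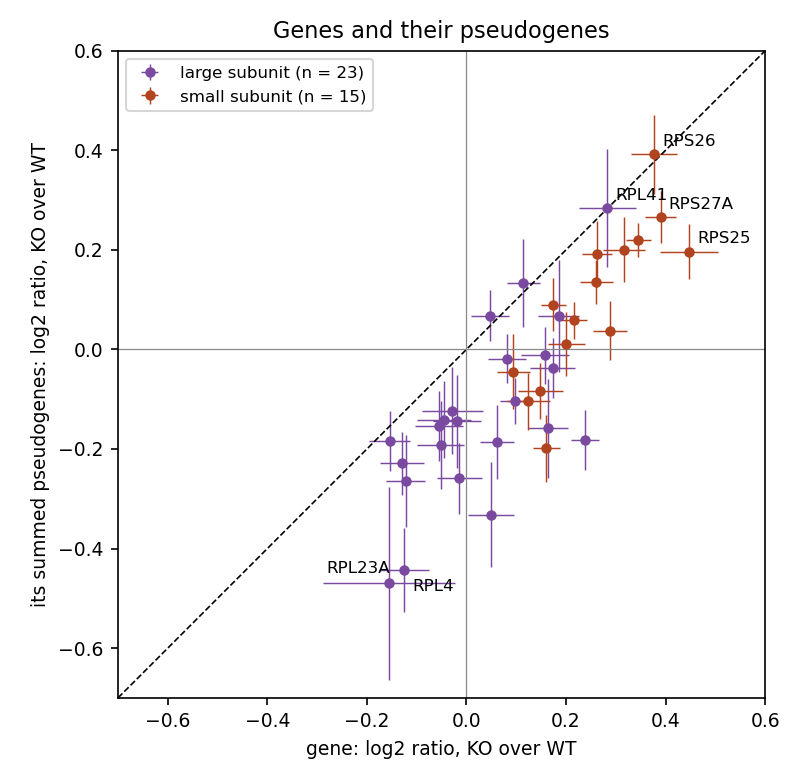
Log2 ratio of KO over WT of each gene (x axis) and of its summed pseudogene rows (y axis) in kept barcodes, for the 38 members with at least 100 CPM whose pseudogenes hold over 10% of the summed UMIs, with 95% counting intervals and the line of equality. In 34 members the point lies below the line, and the pseudogenes follow the order of the genes at lower values (Spearman rho 0.81 across genes).

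The higher share in KO was present at every depth of barcode. At 10 to 99 UMIs the members held 24.5% of UMIs in KO and 21.8% in WT, at 250 to under 500 UMIs 24.8% in KO and 22.3% in WT, and at 2000 UMIs or more 23.8% in KO and 21.3% in WT. Barcodes of 10 to 99 UMIs may hold free RNA, and since their shares are near those of kept barcodes, RNA from the cell and from its surroundings cannot be told apart. Small subunit genes alone held 10.6% in KO and 9.18% in WT at the highest depth and 10.9% in KO and 9.40% in WT at the lowest.

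**Figure D5:**
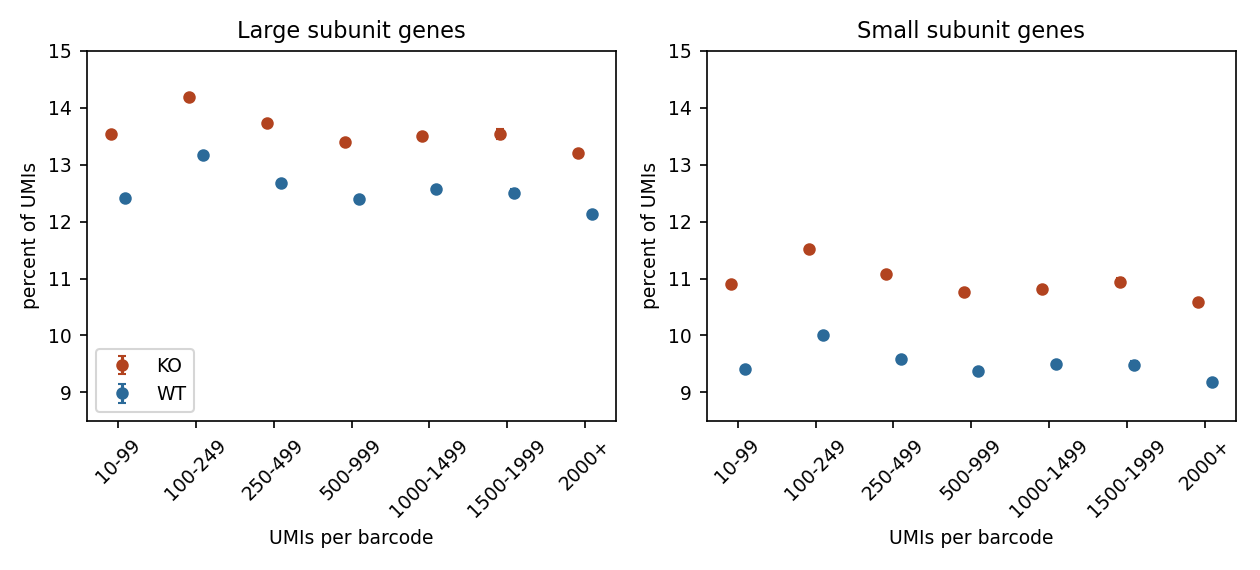
Percent of UMIs in large subunit genes (left) and small subunit genes (right) by UMIs per barcode, KO in red and WT in blue, with 95% Clopper-Pearson intervals; the y axes start at 8.5%. In all 7 bins the KO value is above the WT value in both subunits, with the lowest values at 2000 UMIs or more.

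Mitochondrially encoded genes were also higher in KO, at 54482 CPM in KO and 45764 CPM in WT in kept barcodes (0.25, interval 0.24 to 0.26) and with a log2 ratio of 0.17 in shallow barcodes. The median mitochondrial share of a kept barcode was 5.10% in KO and 4.36% in WT. Within bands of that share the members were still higher in KO. With 0 to 2% mitochondrial UMIs they held 25.5% in KO and 24.1% in WT, with 2 to 5% they held 23.9% in KO and 21.2% in WT, with 5 to 10% 23.8% in KO and 20.8% in WT, and with 10 to 20% 23.7% in KO and 21.0% in WT. The gap was smallest in the lowest band, which held 503 KO and 784 WT barcodes.

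From barcode to barcode, after each was thinned at random to 1000 UMIs, the members held a median of 24.0% in KO (quartiles 22.0% and 26.4%) and 21.7% in WT (quartiles 19.5% and 24.2%), so the ranges of the 2 libraries overlap widely. Without thinning the medians were 24.1% in KO and 21.7% in WT. The variance of the summed UMIs over their mean was 4.44 in KO and 5.75 in WT. Counting alone would give a value below 1, since every barcode was thinned to the same total. For the large subunit the variance over mean was 2.7 in KO and 3.56 in WT and for the small subunit 2.79 in KO and 3.30 in WT. For single members it was near 1, with a median of 1.08 in KO and 1.1 in WT over the 70 members averaging at least 0.5 UMI. Large and small subunit percentages moved together across kept barcodes, with a Spearman rho of 0.60 in KO and 0.66 in WT, both taken from the same thinned UMIs. In shallow barcodes thinned to 250 UMIs rho was 0.13 in KO and 0.15 in WT, and the variance over mean of the sum was 1.37 in KO and 1.42 in WT. Both measures fall with fewer UMIs per barcode. Kept barcodes thinned to 500 UMIs gave a rho of 0.38 in KO and 0.48 in WT. Their variance over mean of the sum was then 2.53 in KO and 3.23 in WT. Values at 250 UMIs therefore cannot be compared with those at 1000 UMIs.

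The members are short genes, and shorter genes in general had higher ratios. Their coding length had a median of 460.5 bases, from 75 for RPL41 to 1281 for RPL4. Other genes averaging at least 20 CPM had a median log2 ratio of -0.01 at up to 450 coding bases (n = 478), -0.04 at 601 to 900 (n = 803) and -0.24 above 3000 (n = 735). Members in the first of these classes had a median of 0.20 (n = 34) and those at 601 to 900 bases one of 0.06 (n = 19), above other genes of the same length. Among the 71 members with at least 100 CPM the log2 ratio had a Spearman rho with coding length of -0.37, with mean CPM of 0.30 and with transcript GC content of -0.01. The part of length in the difference between the libraries was not tested.

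Other genes that serve the ribosome are set beside the share of all genes higher in KO, 34.3%, and the median over all genes, -0.12. FAU, a fusion gene outside the rule, was at 2183 CPM in KO and 1788 CPM in WT (0.29, interval 0.24 to 0.33). A list of 18 TOP messages from genes outside the rule, which share the start motif, summed to 20135 CPM in KO and 20083 CPM in WT. The list includes RACK1, itself a small subunit protein, at -0.03 (interval -0.07 to 0.01). Of the 17 that averaged at least 20 CPM, 6 were higher in KO and 11 lower, with a median of -0.05. The count is near the share of all genes. NPM1, a nucleolar chaperone, and EEF1B2, an elongation factor subunit, were the highest at 0.32 and 0.29, and BTF3 and EEF2, the translocation factor, the lowest at -0.29 and -0.26. Of 30 ribosome biogenesis genes 28 had at least 20 CPM, and 18 were higher in KO, with a median of 0.10. RRP12 and MYBBP1A had the highest values at 0.53 and 0.38, and POLR1A and EIF6 the lowest at -0.30 and -0.27. Of these only MYBBP1A was alike in shallow barcodes, at 0.36, where RRP12 was at -0.09, POLR1A at 0.12 and EIF6 at -0.01. Of 4 chaperones that guard single ribosomal proteins 3 averaged at least 20 CPM, 2 higher in KO and 1 lower. HEATR3, the chaperone of RPL5 and RPL11, fell short of that level at 15.4 CPM in KO and 23.4 CPM in WT (-0.60, interval -1.10 to -0.12). In shallow barcodes all 4 reached it, with 2 higher and 2 lower, against 33.1% of all genes higher. HEATR3 was at -0.32 there (interval -0.52 to -0.13). TSR2, the chaperone of RPS26, was at 128 CPM in KO and 98.3 CPM in WT (0.38, interval 0.19 to 0.57) and BCCIP, the chaperone of RPL23, at 179 CPM in KO and 195 CPM in WT (-0.12, interval -0.27 to 0.03). Of 8 L paralogs 4 had at least 20 CPM; RPS27L, a p53 target, was at 246 CPM in KO and 339 CPM in WT (-0.46, interval -0.58 to -0.34), opposite to its parent RPS27, while RPL22L1 was at 0.11 (interval -0.02 to 0.24).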

How the data were processed

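The deposited values are UMI counts for each gene in each barcode, whole numbers that the authors had not normalized. Tools listed, per the submitters' processing notes and without their roles, are featureCounts 2.0.1, STAR 2.7.10a, Subread and UMI-tools 1.1.2, on hg38. No source used here gives the annotation or a barcode filter. The KO table exceeds its stated size by 15 entries, which were kept. Doublets were not removed. Counts were summed over kept and over shallow barcodes and scaled to CPM of all UMIs, with exact Poisson intervals for levels, exact conditional binomial intervals for ratios and Clopper-Pearson intervals for shares, all at 95%. Genes at 0 in 1 library stood at a floor of 3 UMIs in counts past a fold. No p-value was computed, since there was 1 library per genotype and barcodes are not replicates. TMM factors came from edgeR 4.0.16 (R 4.3.3), and the rest from Python 3.11.15 with NumPy 2.4.6, SciPy 1.17.1 and pandas 2.3.3. Start sequences and coordinates are from RefSeq tables of GRCh38.p14, and coding lengths and overlaps from GENCODE 29. On simulated counts for this comparison the simulated ratio lay inside its interval for 96.1% of 5700 unchanged genes. It did so for 94% of 50 genes at 0.8-fold and of 50 at 0.5-fold, and for 90% of 50 at 2-fold. These shares concern counting error alone and are no test of spread between barcodes or cultures. The summed members had a variance over mean of 4.44 in KO and 5.75 in WT across kept barcodes thinned to 1000 UMIs. Intervals of the subunit sums are therefore too narrow for that spread.

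The members and lists were chosen with earlier results of these data known. Named were members with their role group, the 6 highest and 6 lowest of each subunit with at least 100 CPM, every member below 100 CPM, those with most UMIs, up to 10 members with large pseudogene shares, and the extremes of the other lists with at least 20 CPM. RPL13A and other pairs set beside their pseudogenes outside that rule were chosen after their values were seen. A few genes that the rule would name are not reported here; they stay in every count and sum but not in the plots of single members.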

Additional observations from a re-analysis of the deposited data

How the results depend on the processing

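No paired analysis was possible because each genotype was 1 library, and for the same reason no replicate could be left out. Both subunit sums stayed higher in KO under each alternative run, and the small subunit stayed above the large one. Of the changes of scaling, leaving out mitochondrially encoded genes gave 0.13 for the large and 0.21 for the small subunit in kept barcodes and 0.12 and 0.21 in shallow barcodes; leaving out ribosomal protein and mitochondrially encoded genes gave 0.18 and 0.26 in kept and 0.18 and 0.27 in shallow barcodes; TMM gave 0.22 and 0.31 in kept and 0.23 and 0.31 in shallow barcodes. A minimum of 2000 UMIs gave 0.12 and 0.21, and adding pseudogenes gave 0.083 and 0.18 in kept and 0.081 and 0.18 in shallow barcodes. The small subunit without RPS27 was at 0.19 in both layers, and the large subunit without RPL34 at 0.11 in shallow barcodes. Members with a log2 ratio of at least 0.32 numbered 16 (kept) and 17 (shallow) without ribosomal protein and mitochondrially encoded genes in the scaling, 23 and 24 under TMM, and 4 with pseudogenes added in kept barcodes. At a fold of 1.1 there were 35 and 33 higher and 3 and 3 lower, and at 1.5 there were 0 in each. Members at -0.32 or below were 0 in kept barcodes under TMM and under the scaling without ribosomal protein and mitochondrially encoded genes, at a minimum of 2000 UMIs, at a limit of 10% mitochondrial UMIs and after thinning. They were also 0 in both layers without shared barcode sequences, an alternative chosen after seeing the data, and 0 in shallow barcodes under those same scalings. RPS9 turned to 0.053 at a minimum of 2000 UMIs, and RPS10 turned to -0.21 and RPS18 to 0.24 with pseudogenes added; the cause was not tested. The median share per barcode differed by 2.3 points in kept barcodes, 2.4 when thinned to 500 UMIs and 2.36 unthinned, and in shallow barcodes by 2.4 and 2.52 unthinned. Of 55 named members, 7 changed sign under TMM, 6 at a minimum of 2000 UMIs and 4 with pseudogenes added. At means of at least 5 and of at least 100 CPM, 10.3% and 6.83% of all genes in kept barcodes reached 0.32. Depth limits the 6 members below 100 CPM.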

Other observations

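Genes of the ribosome inside mitochondria, which translates the messages of the mitochondrial genome, differed in both directions. Of 78 listed, 68 averaged at least 20 CPM in kept barcodes, 41 of them higher in KO and 27 lower, with a median log2 ratio of 0.05, against 34.3% of all genes higher and a median of -0.12. MRPS21 stood out by size, at 618 CPM in KO and 401 CPM in WT (0.62, interval 0.53 to 0.71), and MRPS30 was at 36.2 CPM in KO and 25.2 CPM in WT (0.52, interval 0.15 to 0.90). MRPL38 and MRPL40 were the lowest, at -0.34 (interval -0.67 to -0.00) and -0.33 (interval -0.63 to -0.04). Shallow barcodes gave 42 higher and 26 lower, with a median of 0.07, against 33.1% of all genes higher; MRPS21 was at 0.66 there, MRPL38 at -0.18, and MRPL40 was on the other side of 0, at 0.16.

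The RNAs made from the mitochondrial genome itself differed unevenly. MT-ND3, a subunit of respiratory complex I, was at 2109 CPM in KO and 1055 CPM in WT (1.00, interval 0.95 to 1.05). MT-RNR1, the small ribosomal RNA, was at 2774 CPM in KO and 1795 CPM in WT (0.63, interval 0.59 to 0.67). MT-ND6 and MT-ATP8 were lower, at -0.36 (interval -0.42 to -0.31) and -0.31 (interval -0.41 to -0.20). Of 16 such genes averaging 20 CPM or more, 12 were higher in KO in kept barcodes and 8 in shallow barcodes, against the same 34.3% and 33.1% of all genes.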
